A study of Sus scrofa with 8 samples.

Results

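The genes described here encode the protein components of the cytosolic ribosome. They were chosen by symbol: RPLP0, RPLP1, RPLP2, RPSA, and every gene named RPL or RPS followed by a number, with or without a final A, X or L, while the RPS6K kinases were left out. This gave 59 of the 6765 genes that had a probe set annotated with exactly 1 gene symbol, 34 of the large subunit and 25 of the small subunit. They were read by 91 probe sets, the groups of short probes that an Affymetrix array uses to measure a transcript, and each gene was represented by its brightest probe set. Of the 59 genes, 56 passed the filter on dim probe sets, 32 of the large and 24 of the small subunit.

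The samples were longissimus dorsi, a back muscle, of Korean native pigs (KNP, 7 months old) and Yorkshire pigs (YS, 6 months old), a piece cut between the seventh and the ninth rib. Each breed had 4 arrays, labelled as biological replicates 1 to 4, and the labels name no treatment or genetic modification and state that the pigs were kept under the same conditions. The comparison asks which genes differ in muscle expression between these breeds, and since age follows breed in every sample, breed and age cannot be told apart. Values are linear signals in arbitrary units, and changes are KNP minus YS on the scale of log2(signal + 32), tested with limma on all 8 arrays.

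Each ribosome joins a small subunit, which holds the mRNA and reads its codons, to a large subunit, which forms the peptide bond. Cells make the proteins of both subunits in matched amounts, and most of their mRNAs begin with a terminal oligopyrimidine (TOP) tract, through which mTORC1 signalling sets their translation. In muscle the number of ribosomes limits the capacity for protein synthesis, and several free ribosomal proteins bind MDM2, the ubiquitin ligase that keeps p53 low.

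Several array measures bear on genes as bright as these. The hybridisation controls, transcripts added to every sample, fell into a bright set of arrays, replicates 1 and 3 of both breeds (mean log2 signal 13.14 to 13.36), and a dim set, replicates 2 and 4 of both breeds (12.08 to 12.55). The log2 difference between 3' and 5' probe sets of housekeeping genes, a measure of RNA and labelling quality, was highest in KNP 1 at 3.33 and YS 3 at 3.03 and lay between 0.87 and 1.73 on the other 6 arrays. The breeds had nearly equal means for both measures (exact two-sided permutation test, p = 1 each, smallest possible p = 0.0286). All 8 measured skeletal muscle markers were above the negative controls on every array, and their summed signal ran from 387232 to 584360 in KNP and from 512631 to 785555 in YS, with KNP 4 lowest and YS 4 highest. Signals in a tissue piece cannot tell fewer cells of a type from less RNA per cell.

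Nearly all of these genes were at the bright end of the arrays. For 53 of the 59 the signal exceeded 10000 on all 8 arrays, within 10077 to 74260, and 53 lay among the highest 2% of probe sets on every array. Each array had nearly the same mean without its highest and lowest 2% (500.1 to 500.2), a mean that does not include these genes, but how the values were scaled was not given in the sources used here. The signal of a probe set also depends on its probes, so signals of different genes were not ranked. The probe sets of RPL26 (60 to 153), RPL30 (11 to 140) and RPS15A (16 to 101) gave signals near those of the negative control probe sets and were not tested. RPL3, RPL37 and RPS27L were the other genes read at 10000 or less on at least 1 array.

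Most of these genes shared a pattern that ran between arrays of the same breed. On KNP 1 and on YS 4, 54 and 53 of the 56 genes were above their own mean over the 8 arrays, with medians of 0.21 and 0.27 on the log2 scale. On YS 2 only 4 genes were above their own mean, and the median was −0.17. The medians of the other arrays were 0.05 in KNP 2, −0.04 in KNP 3, −0.15 in KNP 4, −0.09 in YS 1 and −0.10 in YS 3. Thus 50 of the 56 genes reached their highest signal on KNP 1 (21 genes) or YS 4 (29 genes), 1 array of each breed.

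RPLP0, the scaffold protein of the ribosomal stalk, showed this pattern. Its signals were 48378, 44202, 40824 and 36056 in KNP 1 to 4 and 39715, 36976, 40023 and 54765 in YS 1 to 4. RPS6, the small-subunit protein phosphorylated by S6 kinase downstream of mTORC1, read 44864, 37888, 37695 and 33579 in KNP and 37044, 33517, 36179 and 48594 in YS. Both genes were highest on YS 4 and next highest on KNP 1, and the breeds overlapped. When the median of the 56 genes on each array was subtracted, the within-breed SD became smaller for 51 of them, and its median over the genes went from 0.24 to 0.15.

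Other bright probe sets moved with them on some arrays and not on others. The 332 other probe sets had a mean signal above 10000 and were not assigned to a ribosomal protein gene by exactly 1 symbol. Unnamed probe sets and those of several symbols were kept, and some of them may read ribosomal protein genes. The 332 had median deviations of 0.10 on KNP 1, 0.17 on YS 4, −0.22 on KNP 4 and −0.07 on YS 2. These had the same sign as the ribosomal protein genes. On the other 4 arrays the sign was opposite, with −0.02 on KNP 2, 0.03 on KNP 3, 0.02 on YS 1 and 0.03 on YS 3. Across all genes tested, the medians of the arrays stayed between −0.04 and 0.07. They too were highest on KNP 1 (0.07) and YS 4 (0.06), with YS 3 next at 0.05. KNP 1 had the highest 3' to 5' difference and YS 4 did not, and YS 4 had the highest muscle marker sum. That sum was 584360 on KNP 1, the highest of the KNP arrays. It was higher still, 620359, on YS 3, where the ribosomal protein median was −0.10. The part of these measures in the ribosomal protein signal was not tested.

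**Figure D1:**
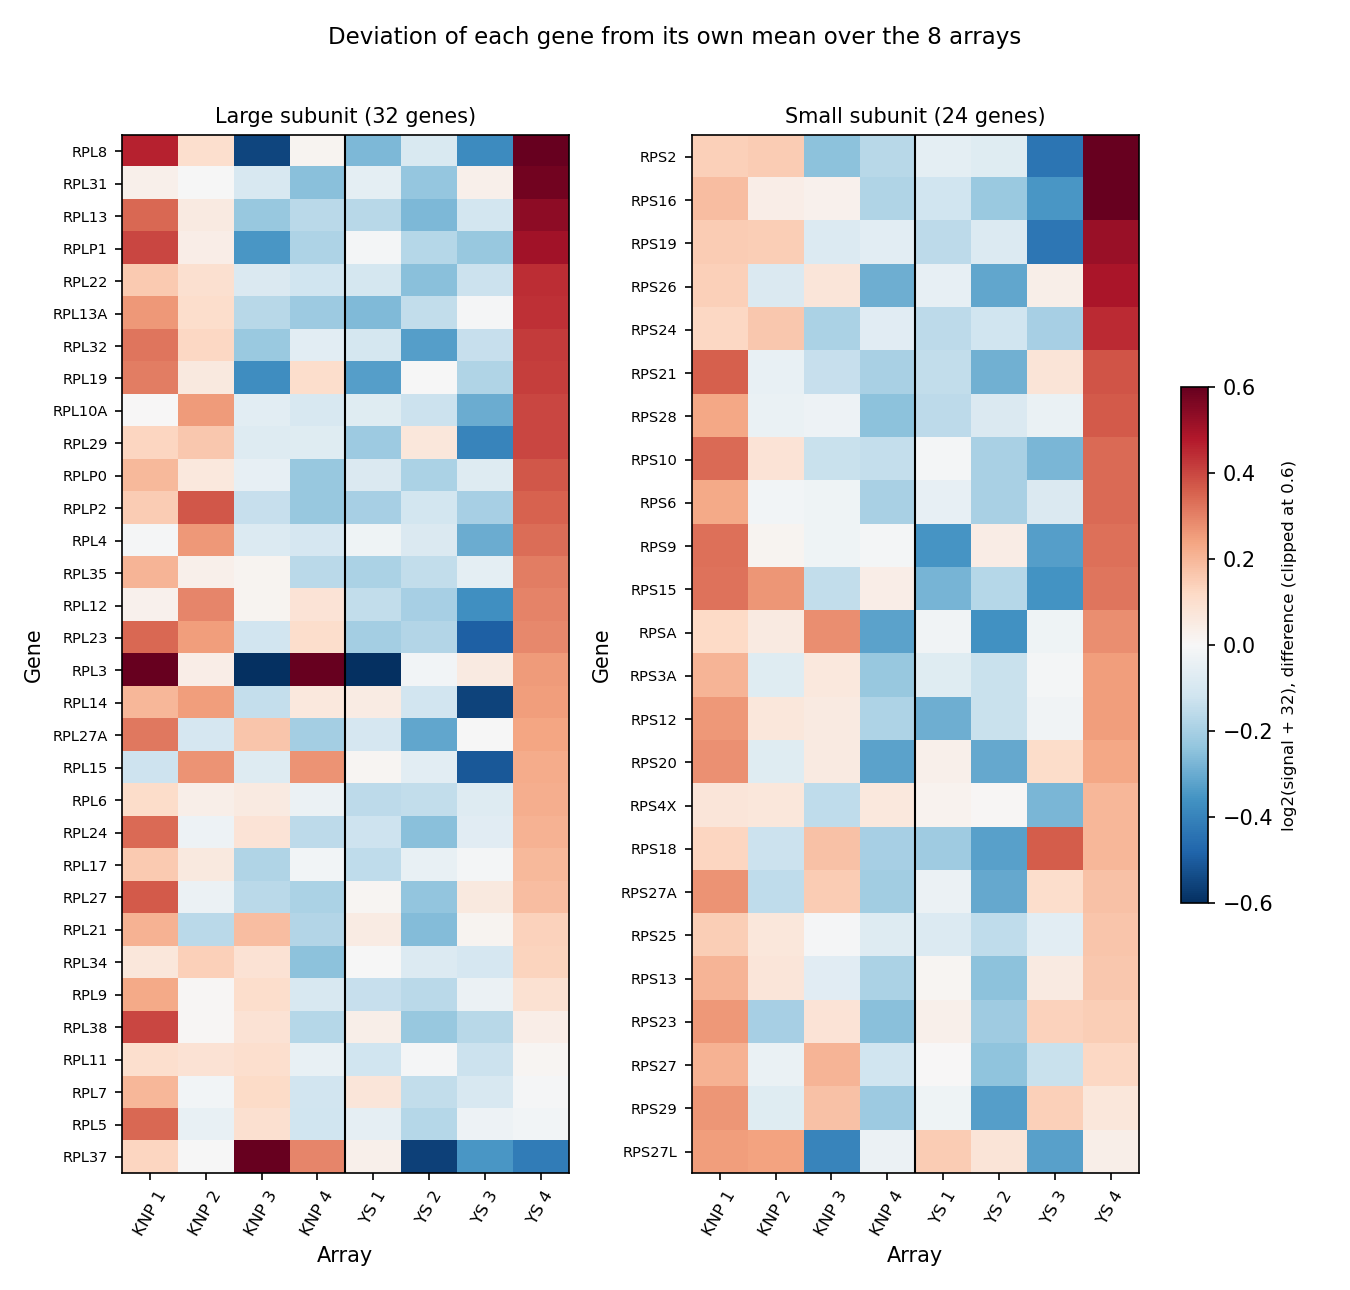
Deviation of each of the 56 tested ribosomal protein genes (y axis) from its own mean over the 8 arrays (x axis), as a colour on the log2(signal + 32) scale clipped at 0.6, with 32 large-subunit genes on the left and 24 small-subunit genes on the right. The columns of KNP 1 and YS 4 are red for nearly all genes, and the clearest exception is RPL37, which is below its own mean on YS 4.

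Between the breeds, no ribosomal protein gene passed the test. Of the 14399 probe sets tested on the array, 0% passed an adjusted p of 0.05 with limma, and the smallest adjusted p of a ribosomal protein gene was 0.999. At an unadjusted p under 0.05, 1 of the 56 genes was higher in KNP, where 1.74% of the 5331 genes tested were, and 0 were lower, where 1.69% of all genes were. In 0 of the 56 genes did the 4 KNP arrays lie all above or all below the 4 YS arrays, where 1.14% and 1.11% of all genes did.

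The changes were small and leaned to one side. Of the 56 genes, 42 had a change above 0, where 49.6% of all genes tested did; after quantile normalisation the count was 53 of 56, and after centring each array on its median it was 38. The median change was 0.05 (range −0.16 to 0.65), against −0.00269 over all genes. The median standard error was 0.19, so the typical change was smaller than its own error. The 95% confidence interval lay within 0.5 on either side of 0 for 36 of the 56 genes and within 1 for 55. Of all 5331 genes tested, 540 and 4030 had intervals inside the same limits. Most of those genes are far dimmer, and the fit lets the error follow brightness. No share over equally bright genes was taken, so the narrower intervals cannot be credited to this group of genes.

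The size and direction of the lean depended on which arrays were included. Leaving out KNP 1 put 26 of the 56 genes above 0 (median −0.015), and leaving out YS 4 put 55 there (median 0.16). Within the arrays of bright hybridisation controls 55 genes were above 0 (median 0.18), and within the dim ones 12 were (median −0.10). Without the pair of arrays of highest 3' to 5' difference, KNP 1 and YS 3, the count was 20. Without KNP 1 and YS 4 together, an alternative chosen after seeing the data, it was 46. The number of genes at an unadjusted p under 0.05 was 0 without KNP 3, 0 without YS 2 and 3 without YS 4.

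**Figure D2:**
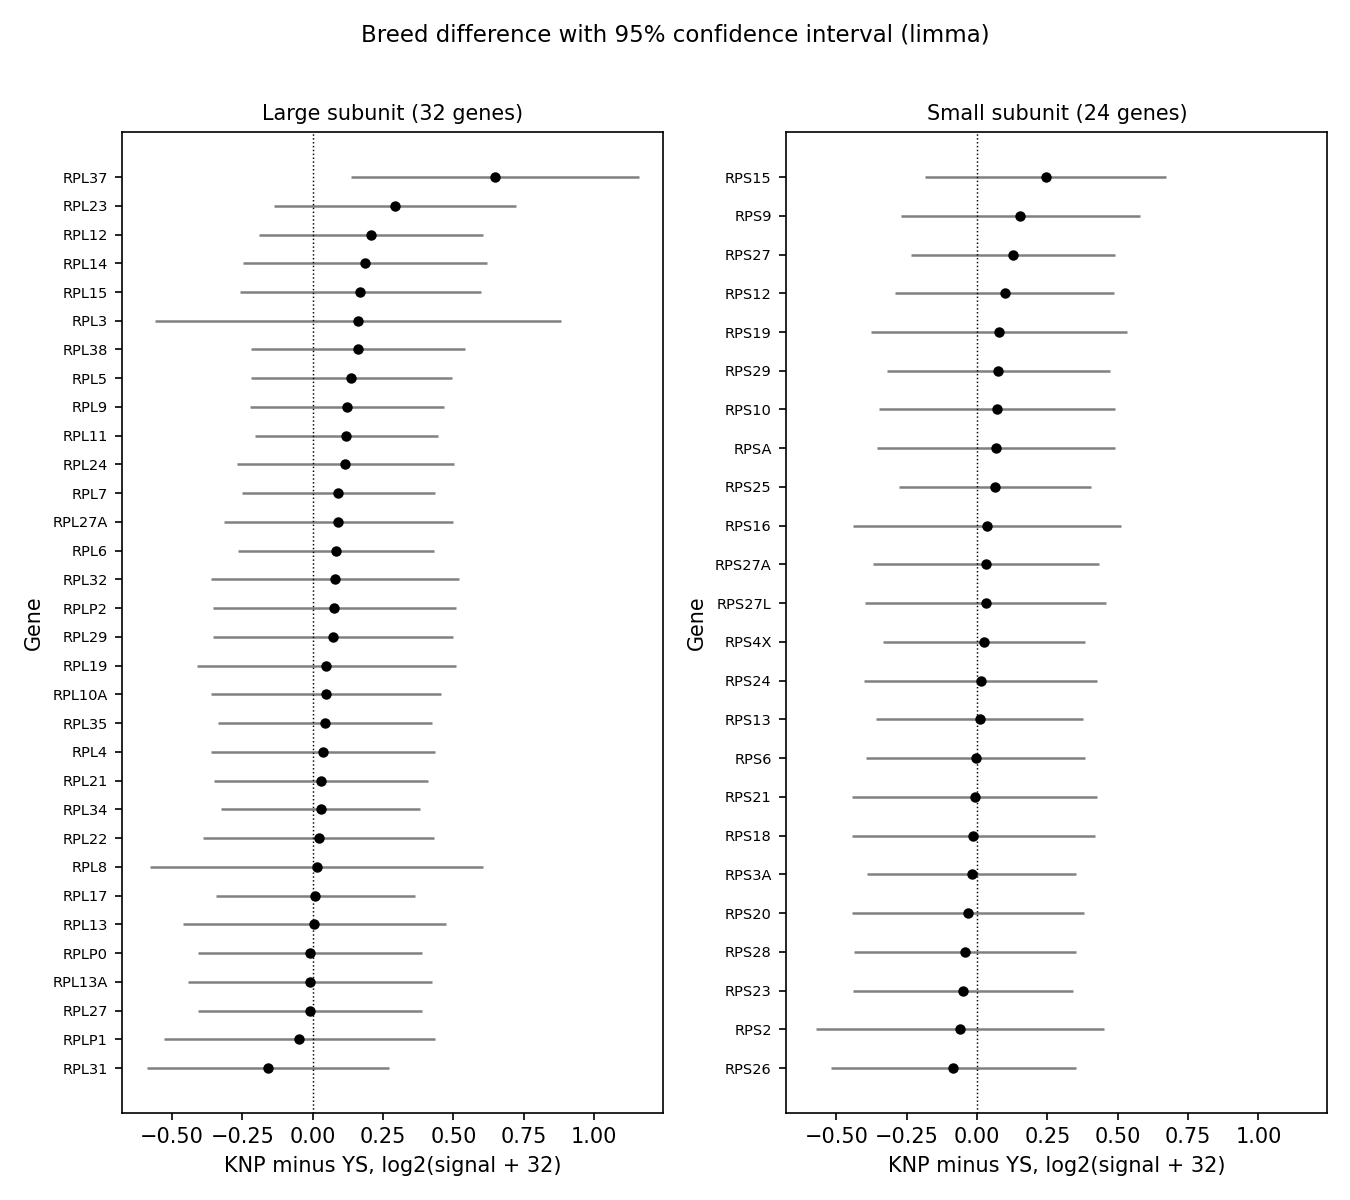
Change between breeds (x axis, KNP minus YS, log2(signal + 32)) with its 95% confidence interval from limma for the 32 large-subunit and 24 small-subunit genes tested (y axis). Points are estimates and lines are intervals, and the interval of RPL37 is the one that does not include 0.

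The stalk of the large subunit, built on RPLP0 and carrying RPLP1 and RPLP2, recruits the elongation factors. RPLP1 read 47927, 37270, 28469 and 31976 in KNP and 35983, 32283, 30972 and 51564 in YS. RPLP2 read 13117, 15297, 10725 and 10077 in KNP and 10284, 10931, 10296 and 15113 in YS. The 3 stalk genes had changes of −0.01 (SE 0.18), −0.05 (SE 0.22) and 0.08 (SE 0.20) in the order RPLP0, RPLP1, RPLP2. RPL12, which sits at the base of the stalk, was higher in KNP by 0.21 (SE 0.18, limma adjusted p = 0.999). Its YS 4 signal of 27761 exceeded all 4 KNP signals (22829 to 27677), and the other 3 YS signals (17463 to 20394) were below them. The change of RPL12 was 0.34 without YS 4 and 0.12 without YS 3.

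RPL37, a small zinc-binding protein of the large subunit, had the largest change and was the gene at an unadjusted p under 0.05. Its signals were 846, 771, 1438 and 954 in KNP 1 to 4 and 790, 513, 599 and 569 in YS 1 to 4. The KNP mean was 1002 ± 300 and the YS mean 618 ± 120 (SD, n = 4 each), and the breeds overlapped only in that YS 1 exceeded KNP 2. The change was 0.65 (SE 0.23, 95% confidence interval 0.14 to 1.16), or 1.57-fold, and the limma adjusted p was 0.999. Arrays of bright and of dim hybridisation controls gave 0.66 and 0.64 when fitted apart, and the value was 0.46 without KNP 3, the array of its highest signal. RPL37 did not share the array pattern of the other genes, since KNP 3 was its highest array and YS 4 was among its lower ones. It was read by 1 probe set, at 513 to 1438, far dimmer than most of these genes. The dimmer second probe sets of other genes, described below, did not follow the pattern either. Whether the gene or the dim probe set accounts for this was not tested.

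RPL23, a large-subunit protein that can also bind MDM2, read 27117, 25360, 19700 and 22924 in KNP and 18541, 18899, 15168 and 26026 in YS. All KNP arrays exceeded YS 1, YS 2 and YS 3, while YS 4 exceeded 3 of the 4 KNP arrays. Its change was 0.29 (SE 0.20, limma adjusted p = 0.999), 0.44 without YS 4 and 0.18 without YS 3. RPL14 had a change of 0.18 (SE 0.20) and RPL38, a protein known for its part in translating Hox mRNAs in the embryo, one of 0.16 (SE 0.17). These values were 0.030 for RPL14 without YS 3 and 0.054 for RPL38 without KNP 1. At the other end was RPL31, a protein near the exit of the peptide tunnel, with a change of −0.16 (SE 0.20). RPL31 read 41747 to 50767 in KNP and 42293 to 50850 in YS 1 to 3, and 74260 on YS 4; without YS 4 its change was 0.0059.

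RPL5 and RPL11 form a particle with 5S rRNA and are the best known ribosomal inhibitors of MDM2. RPL11 varied least of all 56 genes, with a within-breed SD of 0.07. When the median of the 56 genes on each array was subtracted, its SD rose to 0.142, near the genes' median of 0.145. It read 36548, 36114, 36449 and 32949 in KNP and 31338, 33865, 31165 and 34364 in YS. KNP 1, 2 and 3 were above all YS arrays, KNP 4 was not, and the change was 0.12 (SE 0.15, limma adjusted p = 0.999). RPL5 changed by 0.14 (SE 0.16) and was highest on KNP 1 at 44137, with the other 7 arrays between 30794 and 37061; without KNP 1 its change was 0.045. RPL7 and RPL9 were also among the 4 genes of smallest within-breed SD (0.12 and 0.13), with changes of 0.09 (SE 0.16) and 0.12 (SE 0.16). After the same subtraction the SDs of RPL7 and RPL9 were 0.146 and 0.092.

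RPL3 and RPL8, which lie close to the peptidyl transferase centre, varied most within breeds, with SDs of 0.58 and 0.46. RPL3 read 3940, 2611, 1302 and 3862 in KNP and 1650, 2507, 2634 and 3033 in YS, so its lowest and its highest array were both KNP. RPL8 read 24723, 19250, 12219 and 18162 in KNP and 14874, 16840, 13808 and 29345 in YS. KNP 3 was the lowest array of both genes, and the changes were 0.16 (SE 0.33) and 0.01 (SE 0.27). RPL3L, which takes the place of RPL3 in mature muscle, was not analysed here.

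In the small subunit, RPS15, a protein of the subunit's head, had the largest change, 0.24 (SE 0.20, limma adjusted p = 0.999). It read 26933, 25774, 19390 and 22072 in KNP and 17677, 19022, 16739 and 26792 in YS. YS 4 again lay among the highest KNP arrays and the other YS arrays lay below all KNP arrays. The lowest changes of the subunit were −0.08 (SE 0.20) for RPS26, which lines the mRNA exit channel, −0.06 (SE 0.23) for RPS2 at the mRNA entry, −0.05 (SE 0.18) for RPS23 at the decoding centre and −0.04 (SE 0.18) for RPS28. Each of these genes except RPS23 was highest on YS 4, and RPS2 read 59233 there against 27041 to 40700 on the other 7 arrays. Without YS 4 the changes of RPS26, RPS2 and RPS28 were 0.07, 0.16 and 0.07.

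RPSA, also known as a precursor of the laminin receptor, read 26286, 25114, 29375 and 19390 in KNP and 23817, 18832, 23769 and 29375 in YS. Its change was 0.07 (SE 0.19), that of RPS6 was −0.01 (SE 0.18), and that of RPS25, a protein used in initiation at viral internal ribosome entry sites, was 0.06 (SE 0.16). RPS27A, which is made as a fusion with ubiquitin, changed by 0.03 (SE 0.18). RPS27L, a p53-induced paralog of RPS27, read 9576, 9532, 6114 and 7869 in KNP and 8943, 8509, 6426 and 8256 in YS, with a change of 0.03 (SE 0.20). Replicate 3 was the lowest array of RPS27L in both breeds, and the breeds overlapped in all of these genes.

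**Figure D3:**
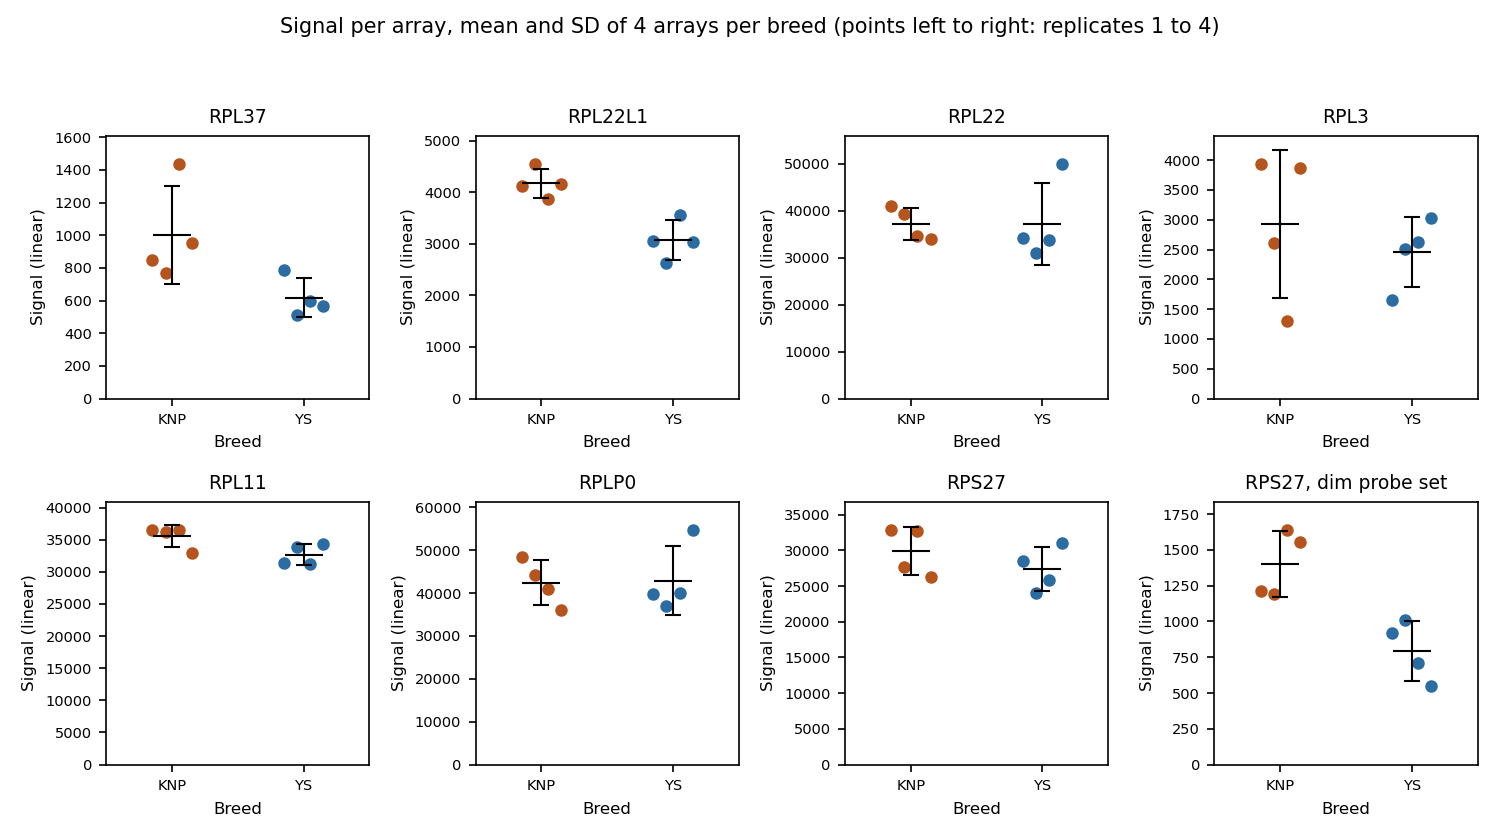
Linear signal (y axis) of 8 probe sets in the 4 KNP and 4 YS arrays (x axis, points from left to right are replicates 1 to 4), with the mean as a wide bar and the SD as an error bar. RPL22L1 and the dimmer RPS27 probe set separate the breeds, RPL37 nearly does, and RPLP0 and RPL22 have a single high YS array.

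The large and the small subunit moved together. Their median deviations differed by −0.07 to 0.08 on the 8 arrays, while the deviations themselves spanned −0.19 to 0.27. Between breeds, 27 of 32 large-subunit genes and 15 of 24 small-subunit genes had a change above 0, with medians of 0.07 and 0.03. Of all genes tested 49.6% had a change above 0. A small difference between the subunits went with the hybridisation controls. Large minus small was −0.02, −0.06, −0.05 and −0.07 on the bright arrays KNP 1, KNP 3, YS 1 and YS 3, and 0.03, 0.08, 0.04 and 0.00409 on the dim arrays KNP 2, KNP 4, YS 2 and YS 4. Every bright array was thus below every dim array, in both breeds.

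This contrast between bright and dim arrays was chosen after its values were seen. The median change, bright minus dim, was −0.08 for the large subunit, with 10 of 32 genes above 0, and 0.02 for the small subunit, with 13 of 24 above 0. Over all genes tested 50.9% were above 0. With limma 0% of the 5331 genes passed an adjusted p of 0.05 in either direction. The highest values were 0.34 for RPL37, 0.28 for RPS29, 0.26 for RPS23 and 0.25 for RPS27A, and the lowest were −0.44 for RPL3, −0.37 for RPL8, −0.35 for RPL15 and −0.30 for RPS2. Replicate number and hybridisation set cannot be told apart in this grouping, since the bright arrays are replicates 1 and 3.

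**Figure D4:**
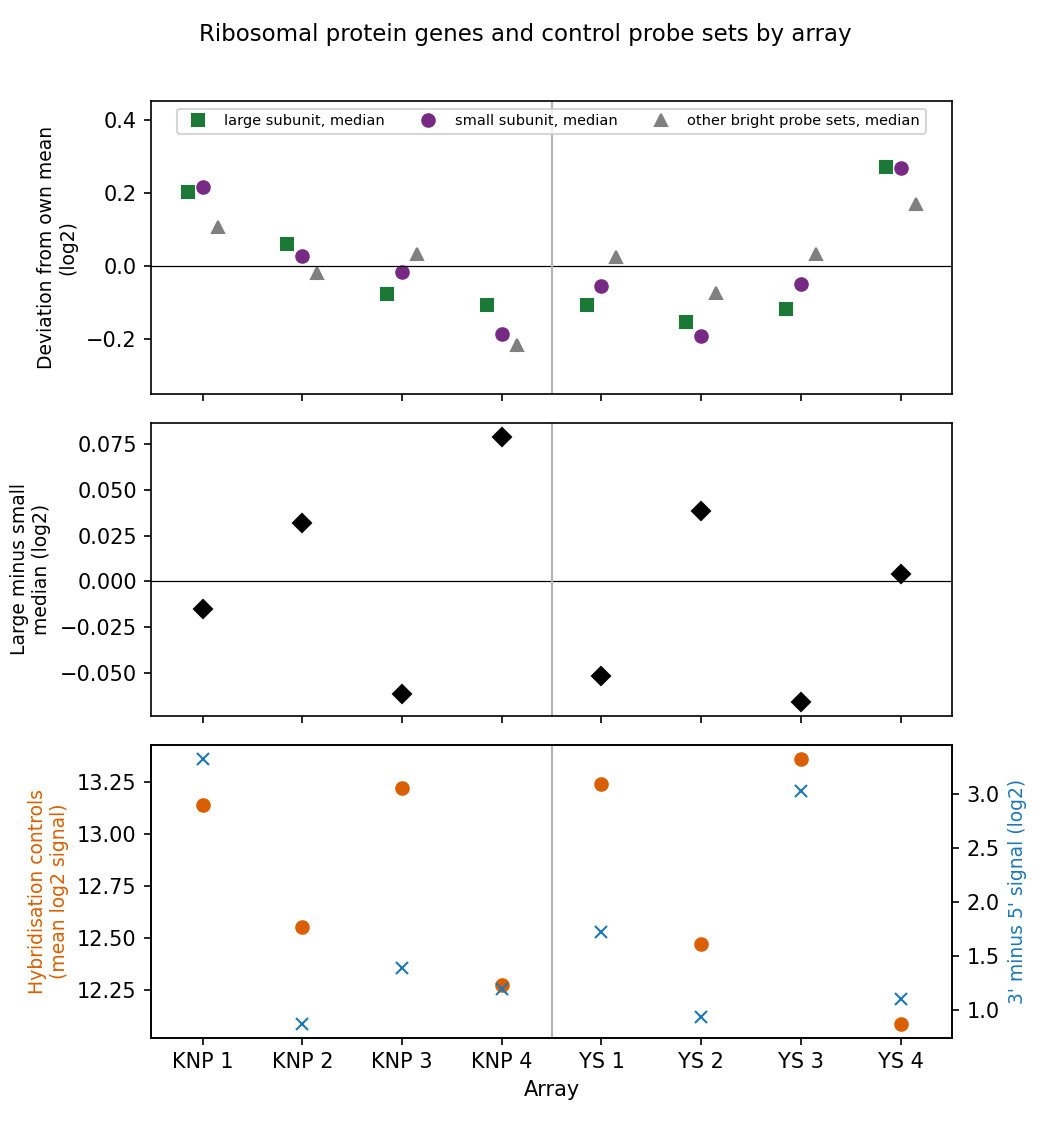
Stacked panels over the 8 arrays (x axis): the median log2 deviation of large-subunit genes, small-subunit genes and 332 other bright probe sets; the large minus small difference; and the hybridisation controls (orange, left axis) with the 3' to 5' difference (blue, right axis). KNP 1 and YS 4 are highest in the upper panel, and arrays with bright hybridisation controls are lowest in the middle panel.

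Several genes were read by more than 1 probe set. For 23 of the 56 genes more than 1 probe set was tested, which added 26 probe sets. Of these, 4 were above 10000 on all arrays, for RPL27, RPL31 and RPS18, and their changes (−0.13 to 0.12) lay within 0.14 of that of the brightest probe set of the same gene. The other 22, of 21 genes, stayed below 5000 on every array. They did not follow the array pattern of the brightest probe sets: 10 of the 22 were lowest on YS 4 and 2 were highest on KNP 1, 18 were higher on the bright arrays (50.9% of all genes were), and 15 had a breed change above 0 (49.6% of all genes did). Their smallest limma adjusted p was 0.999, and 2 were at an unadjusted p under 0.05, that of RPS27 higher in KNP and that of RPS27A lower, where 1.74% and 1.69% of all genes were.

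RPS27, a zinc-finger protein of the small subunit, differed between its probe sets. Its brightest probe set read 32903, 27734, 32768 and 26258 in KNP and 28522, 24061, 25922 and 31034 in YS, with overlap and a change of 0.13 (SE 0.17). The dimmer one read 1214, 1191, 1641 and 1558 in KNP and 920, 1011, 707 and 546 in YS, so that all KNP arrays were above all YS arrays. The change of the dimmer probe set was 0.81 (SE 0.23, 95% confidence interval 0.32 to 1.31, limma adjusted p = 0.999).

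RPS27A went the other way. Its dimmer probe set read 541, 265, 240 and 906 in KNP and 844, 605, 861 and 1329 in YS, with a change of −0.99 (SE 0.38, limma adjusted p = 0.999), against 0.03 for the brightest probe set. KNP 4 lay among the YS arrays and the other 3 KNP arrays were below all of them. The dimmer probe set of RPL38 had a change of −0.62 (SE 0.38) against 0.16, with YS 2 and YS 3 at 3259 and 4345 and the other 6 arrays between 1072 and 1716. Which transcripts and which strand each probe set reads, including copies of these genes elsewhere in the genome, was not tested. The dimmer probe sets may therefore not be further readings of the same mRNAs.

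**Figure D5:**
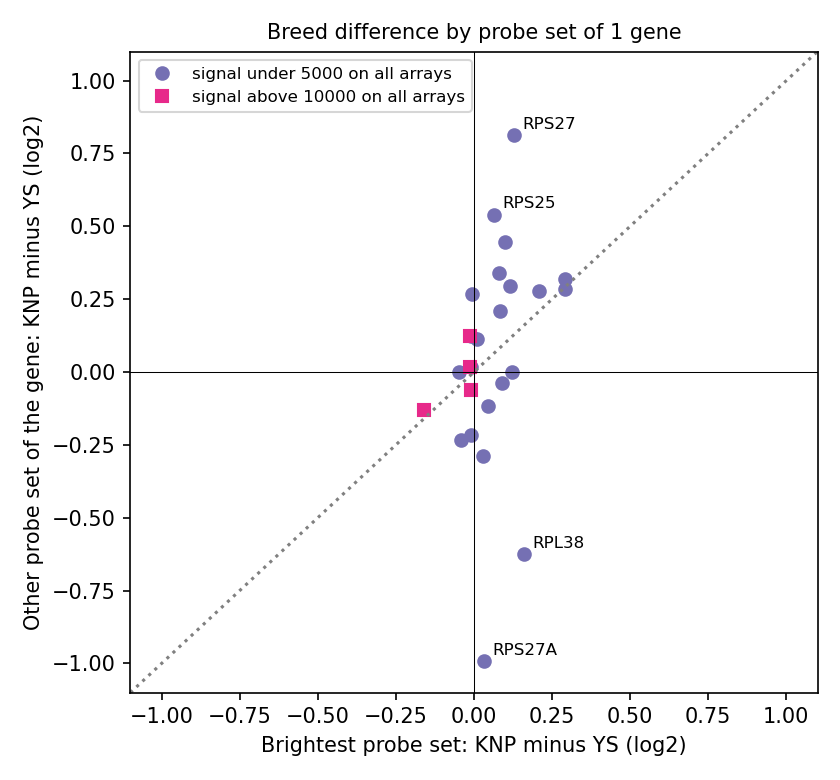
Breed change of a gene's brightest probe set (x axis) against that of each further tested probe set of the same gene (y axis), both KNP minus YS in log2(signal + 32); circles are probe sets below 5000 on all arrays, squares those above 10000, and the dotted line marks equal changes. RPS27 and RPS25 lie above the line and RPL38 and RPS27A below it, while the squares lie near it.

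Paralogs can replace a ribosomal protein in part of the ribosomes, and 3 pairs had both partners tested. RPL22L1, the paralog of RPL22 and outside the naming rule, read 4130, 4553, 3874 and 4154 in KNP and 3058, 2636, 3568 and 3035 in YS. All KNP arrays were above all YS arrays, and the change was 0.44 (SE 0.16, limma adjusted p = 0.999). RPL22 itself read 33864 to 40966 in KNP and 30900 to 50002 in YS, with a change of 0.02 (SE 0.19).

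The log2 ratio of RPL22L1 to RPL22 was higher in KNP by 0.42 (exact two-sided permutation test, n = 4 per breed, p = 0.0571, adjusted over 3 pairs 0.171, smallest possible p = 0.0286). Arrays of bright controls alone gave 0.12 and those of dim controls 0.72, and the value was 0.54 without YS 3 and 0.27 without YS 4. The ratio of RPS27L to RPS27 differed by −0.10 (exact permutation test, p = 0.714) and that of RPL7L1 to RPL7 by −0.14 (exact permutation test, p = 0.343). No ratio of RPL26L1 to RPL26 is given, because RPL26 was near the negative controls. RPL36AL, a paralog of RPL36A, had a change of 0.43 (SE 0.22, limma adjusted p = 0.999), with overlap between the breeds.

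Among genes that act on or with ribosomal proteins, 0 passed an adjusted p of 0.05. In a list of ribosome biogenesis factors 11 of 30 tested genes had a change above 0, where 49.6% of all genes tested did. The median of the list was −0.08. POLR1D, a subunit shared by RNA polymerases I and III, read 2836, 3620, 2390 and 2936 in KNP and 1727, 1586, 1589 and 2313 in YS, without overlap, a change of 0.70 (SE 0.20, limma adjusted p = 0.999). POLR1B, the core subunit of RNA polymerase I that pairs with POLR1A, had a change of −0.58 (SE 0.26, limma adjusted p = 0.999). The POLR1B arrays overlapped, with 161 to 326 in KNP and 321 to 418 in YS.

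In the list of translation factors whose mRNAs are of the TOP type, 13 of 17 were above 0 and the median was 0.08. Of all genes tested 49.6% were above 0. FAU (change 0.08) and RACK1 (change 0.07) are in this list and were also listed as near the ribosomal protein naming rule, though outside it. In this list NACA, the nascent chain-associated chaperone, had a change of 0.29 (SE 0.19), and EIF3E, an initiation factor, one of 0.23 (SE 0.15), with all KNP arrays (9701 to 11212) above all YS arrays (8624 to 9432). In the list of mTORC1 and cap-binding genes 4 of 9 were above 0. EIF4E, the cap-binding protein, had a change of −0.56 (SE 0.23, limma adjusted p = 0.999) and SESN1, an inhibitor of mTORC1 and a p53 target, one of 0.55 (SE 0.25). SESN1 read 9128 on KNP 3 and 3390 to 5213 on the other 7 arrays, and without KNP 3 its change was 0.29. In the list of MDM2 and p53 genes 3 of 6 were above 0, and CCNG1, a p53 target, had a change of 0.29 (SE 0.18).

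Most muscle and matrix markers had changes below 0. Of the 8 skeletal muscle markers 7 had a change below 0, with a median of −0.32, and so did 5 of 5 fibroblast and matrix markers, whose summed signal ran from 9762 to 16798 in KNP and from 12832 to 22630 in YS. Adipocyte markers were below 0 in 3 of 4, endothelial markers in 1 of 4, markers of macrophages and lymphocytes in 0 of 3 and red cell markers in 1 of 3. Of all 5331 genes tested, 2688 had a change below 0. The part of these markers in the ribosomal protein values was not tested.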

How the data were processed

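Total RNA was extracted with Trizol, labelled with biotin and hybridised to 8 arrays, per the labels' protocols. The values that the authors deposited are linear intensities, with 1 for every probe set on each array. The submitters' processing notes name GCOS 1.3. How probes were summarised and scaled, and which genome build was used, were not given in the sources used here. No positions are printed. Each array had a mean of 500.1 to 500.2 without its highest and lowest 2% of values, which points to a scaling per array, and changes are relative to the rest of the array. The table held 24123 probe sets and 0 value columns beyond the 8 arrays. No arrays were identical, and no pair correlated above 0.943.

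Gene names came from GEO's platform annotation, which can be old. Of 23999 probe sets that are not controls, 10069 had exactly 1 symbol, 198 had several and 13732 were unnamed here. All 59 ribosomal protein genes were found by gene number with the same symbol in the Sscrofa11.1 gene table. The 8 probe sets that list a ribosomal protein symbol among several were not used.

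Values were transformed to log2(signal + 32), so changes of dim probe sets are understated. Controls (124 probe sets) and the dimmest 40% of the rest by mean were left out, which left 14399. The limit was near a signal of 98.6, above the 95th percentile of 91.5 of the 23 negative controls. limma 3.58.1 in R 4.3.3 (lmFit, eBayes with intensity trend) was fitted on all 8 arrays without covariates, with Benjamini-Hochberg adjustment across the 14399 probe sets. The scripts were tested on simulated data. Replicates are biological per the labels, and precision is limited by how many arrays there are: the median 95% confidence interval reached 0.41 to each side for the ribosomal protein genes and 0.56 for all genes. Paralog ratios and array measures were compared by exact two-sided permutation tests with 70 labellings.

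The genes named are those past the threshold, the 6 of smallest p in each direction, the 5 changes farthest from the median, the 4 largest and 4 smallest within-breed SDs, the 3 genes whose probe sets disagree most, and 13 genes listed for their role as far as measured. From each other list the 2 of smallest p are named, unless a gene passed. The paralog pairs were listed too, and RPL26L1 with RPL26 was left out because RPL26 did not pass the filter. Genes named for the contrast of bright and dim arrays were chosen after their values were seen. The genes and the lists were chosen with earlier results of these data known. Alternatives in pseudocount, filter, normalisation, trend, blocks, array quality, probe set choice and arrays left out are given in the closing section.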

Additional observations from a re-analysis of the deposited data

Results flagged for a closer look

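Within a breed's 4 arrays, a value was picked out when its gap to the nearest of the others, divided by the range of the 4, exceeded Dixon's 95% critical value. Chance alone picks out about 1 group in 20, and 4 of the 84 groups examined were picked out here. RPL11 was lowest on KNP 4 (gap 0.885 of the range, log2 signal 15.01 against 15.14 to 15.16). RPLP2 was highest on YS 4 (gap 0.842, log2 signal 13.89 against 13.33 to 13.42), an array on which 29 of the 56 ribosomal protein genes were highest. CCNG1, a p53 target, was highest on YS 1 (gap 0.832). The log2 ratio of RPL7L1 to RPL7 was lowest on YS 1 (gap 0.954).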

How the results depend on the processing

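In all 23 alternative settings, 0 ribosomal protein genes passed an adjusted p of 0.05, and the smallest limma adjusted p of any named gene was 0.827. Among 805 values of named genes under these alternatives, 739 kept the direction of the reported value and 66 did not. The 739 include settings that cannot move a change: the filters, the fit without trend, and the replicate and hybridisation control blocks. The tally is therefore no measure of how stable the directions are. Same-numbered arrays of the breeds had deviations that correlated at −0.04, 0.31, 0.10 and 0.05. For 3 of 4 replicate numbers the best match was their own number. The main fit did not pair the arrays, and whether same-numbered arrays share a batch was not tested. With the replicate block 1 probe set of the array passed. Each breed has every replicate number, so this block cannot move a change, and the 42 of 56 genes above 0 stayed by design. The count above 0 was 12 within the dim arrays and 20 without the arrays of highest 3' to 5' difference, and it ranged from 26 to 55 when 1 array was left out. The count at an unadjusted p under 0.05 was 0 within the bright arrays, 0 within the dim arrays, 2 with the mean of a gene's probe sets, and 0 to 3 when 1 array was left out. With 1 array left out, the medians ranged from −0.015 to 0.16 for all 56 genes, from 0.016 to 0.18 for the large subunit and from −0.04 to 0.11 for the small subunit. The ratio of RPS27L to RPS27 was 0.065 within the dim arrays and ranged from −0.21 to 0.087 with 1 array left out. That of RPL7L1 to RPL7 ranged from −0.22 to −0.067, and that of RPL22L1 to RPL22 ranged from 0.27 to 0.54. Without YS 3 (n = 3 in that breed) the exact permutation p of RPL22L1 to RPL22 was 0.0286. This is the smallest p that so few arrays can give, and it is not adjusted over the 3 pairs. Changes of single genes turned direction as follows. Quantile normalisation gave 0.012 for RPS23, 0.0035 for RPS2, 0.023 for RPLP1, 0.093 for RPLP0 and 0.047 for RPS6. Within the bright arrays the values were 0.11 for RPS26, 0.088 for RPS23, 0.20 for RPS2, 0.20 for RPS28, 0.15 for RPLP1, 0.16 for RPLP0 and 0.17 for RPS6. Within the dim arrays they were −0.25 for RPL8, −0.012 for RPS25, −0.0074 for RPL9, −0.11 for RPS27A, −0.018 for RPS27, −0.050 for RPLP2 and −0.092 for RPSA. The mean of a gene's probe sets gave −0.23 for RPL38, −0.48 for RPS27A and 0.13 for RPS6. Without the arrays of highest 3' to 5' difference the values were −0.0057 for RPL14, −0.26 for RPL8, −0.013 for RPS27A, −0.013 for RPLP2 and −0.15 for RPS27L. Without KNP 1 and YS 4, chosen after seeing the data, they were 0.0037 for RPS26, 0.10 for RPS2, 0.049 for RPLP0, 0.031 for RPS6 and −0.031 for RPS27L. With 1 array left out, the changes ranged from −0.022 to 0.50 for RPL3, −0.26 to 0.0059 for RPL31, −0.14 to 0.25 for RPL8, −0.075 to 0.12 for RPLP0, −0.19 to 0.11 for RPLP1, −0.034 to 0.21 for RPLP2, −0.22 to 0.16 for RPS2, −0.15 to 0.023 for RPS23, −0.20 to 0.065 for RPS26, −0.066 to 0.11 for RPS27A, −0.073 to 0.17 for RPS27L, −0.13 to 0.073 for RPS28, −0.081 to 0.11 for RPS6 and −0.044 to 0.18 for RPSA. Without a turn of direction they ranged from 0.12 to 0.34 for RPL12, 0.17 to 0.39 for RPS15, 0.030 to 0.30 for RPL14, 0.054 to 0.24 for RPL38, 0.045 to 0.20 for RPL5, 0.041 to 0.15 for RPL7, 0.067 to 0.17 for RPL9, 0.024 to 0.13 for RPS25, 0.067 to 0.19 for RPS27, 0.29 to 0.75 for SESN1 and 0.28 to 0.58 for RPL36AL. The cause of each turn was not tested.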

Other observations

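The array carries 5 control probe sets for ribosomal RNA, which is not polyadenylated and was outside the comparisons above. On YS 4, where most ribosomal protein genes were highest, 4 of the 5 gave their lowest signal of the 8 arrays: 289 and 620 for an 18S and a 28S probe set, 4249 for the other 28S probe set and 253 for the 5S probe set. On KNP 1, the other array of high ribosomal protein signal, the same 4 probe sets read 3281, 2111, 7083 and 709. The remaining 18S probe set was lowest on KNP 1 at 748 and read 933 on YS 4. Signals of different probe sets are not set against each other here, and what these signals reflect in a preparation of labelled mRNA was not tested.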
